A study of Mus musculus with 32 samples.

Results

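The liver transcriptome of female mice given LNA-802 was compared with that of females given a scrambled LNA, 6 days after the first injection. The genes described are the 9457, of 24197 in the authors' deposited table, whose group mean reached 1 FPKM (fragments mapped to a gene, scaled to its transcript length and to the library size) in at least 1 of these groups. LNA-802 is a short antisense oligonucleotide of locked nucleic acid (LNA) that pairs with the microRNA miR-802-5p, and the scrambled LNA is the negative control. The LNA-802 group at day 6 held 5 females and the scrambled group at day 6 held 3 females. All were Crl:CD1(ICR) mice, an outbred stock. They were 9 weeks old at injection and received 2 subcutaneous injections of 25 mg/kg in PBS on consecutive days. The other groups used here are LNA-802 females at day 3 (5 mice), scrambled females at day 3 (3 mice), LNA-1948 males at day 6 (5 mice), and scrambled males at day 6 and at day 3 (3 mice each). LNA-802 was given to females alone and LNA-1948, directed at miR-1948-5p, to males alone, so LNA and sex cannot be told apart between these groups. Day 3 and day 6 livers also belong to different library series by their titles, so day and series cannot be told apart. Poly(A) RNA of whole liver was sequenced with strand-specific libraries.

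MicroRNAs guide a silencing complex to messenger RNAs, mostly through the pairing of bases 2 to 8 of the microRNA, its seed, with the 3' untranslated region (3' UTR). This pairing destabilises the messenger RNA or blocks its translation. A complementary LNA binds the microRNA and keeps it from its targets. In mouse liver miR-802 has been linked to glucose metabolism. The 3 oligonucleotides and the microRNA are printed 5' to 3', with the seed, or the bases of LNA-802 that pair with it, in capitals. The microRNA is from RefSeq (chr16:93369737-93369758 on the plus strand, GRCm38.p6), and the LNAs are as the submitters' labels give them.
mmu-miR-802-5p: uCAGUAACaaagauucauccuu
LNA-802: gaatctttGTTACTG
scrambled LNA: acgtctatacgccca
LNA-1948: ggcagaatactcata
LNA-802 is 15 bases long and pairs with bases 2 to 16 of the microRNA, so its last 7 bases, GTTACTG, are also the sequence of a seed site in a messenger RNA.

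The authors' deposited table gives 1 mean per group and no value per mouse, so no mean below carries an SD, and the depth of the libraries is unknown. The means sum to 200219 FPKM in LNA-802 livers and 198940 FPKM in scrambled livers at day 6, with 9211 and 9327 genes at 1 FPKM or more. Of the 9457 genes, 9081 reached 1 FPKM in both groups, 130 in LNA-802 livers alone and 246 in scrambled livers alone. All 15 hepatocyte markers were members, with a median log2 ratio of -0.03. None of the 33 lymphocyte and neutrophil markers in the table (T, NK and B cells included) reached 1 FPKM, the highest being 0.814 FPKM. Fewer cells of a type and less RNA per cell cannot be told apart in whole-liver RNA. The table's row for the miR-802 gene, which poly(A) libraries hardly sample, holds means of 0.316 FPKM in LNA-802 livers and 0.343 FPKM in scrambled livers, and does not measure the mature microRNA.

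With LNA-802 at day 6 there was higher expression of genes for protein folding and transport in the endoplasmic reticulum (ER), and lower expression of metallothionein, serum amyloid A and several female-biased genes. The authors' deposited table calls 63 of the 9457 genes, which is 0.666%, with 0.05 as the limit for edgeR's adjusted p. Of these, 38 rose (0.402%) and 25 fell (0.264%). The changes were mostly moderate: 11 genes rose and 13 fell by 2-fold or more, and the smallest called log2 ratio was 0.50 in size. Over all 9457 genes the median log2 ratio was 0.01, and 4957 lay above 0 (52.4%). The central range was narrow, with a 10th percentile of -0.22 and a 90th percentile of 0.23. At an unadjusted edgeR p under 0.05 the same table holds 366 genes above 0 (3.87%) and 318 below (3.36%). Of the 376 genes that were members through 1 group alone, 2 of the 130 rose and 8 of the 246 fell. They had to be low in the other group, so these 10 calls carry no weight as a count.

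**Figure D1:**
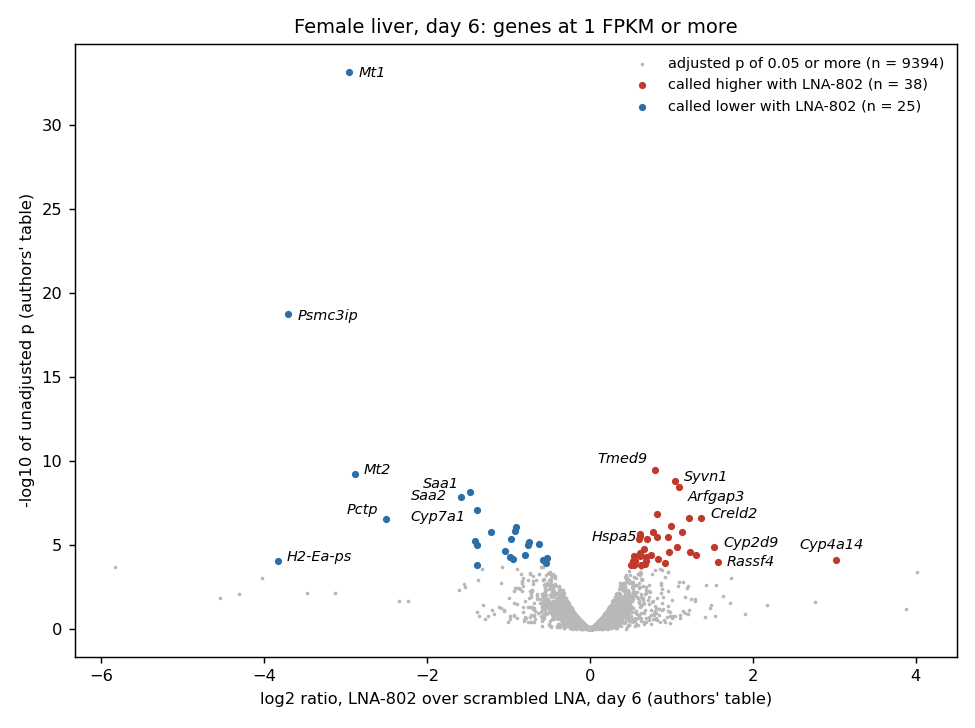
Log2 ratio of LNA-802 over scrambled LNA at day 6 (x axis) against -log10 of the authors' unadjusted edgeR p (y axis) for the 9457 genes. The 38 genes called higher are red and the 25 called lower are blue. Mt1 stands apart by its p, and most called rises have log2 ratios between 0.5 and 1.4.

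Genes for ER chaperones and folding enzymes all lay higher with LNA-802. Secreted and membrane proteins fold in the ER with the help of chaperones such as BiP, and when unfolded proteins accumulate, the unfolded protein response raises transcription of chaperones, degradation factors and transport components through XBP1 and ATF6. A separate arm acts through PERK, ATF4 and CHOP. All 21 listed chaperone and folding genes at 1 FPKM lay above 0 at day 6, with a median log2 ratio of 0.35 against 0.01 for all genes. Of these, 6 rose, and 12 had an unadjusted edgeR p under 0.05. Summed over the list, the means came to 1424 FPKM in LNA-802 livers and 1104 FPKM in scrambled livers at day 6.

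Hspa5 (chr2:34627609-34632049, mm9) encodes BiP, the main Hsp70 of the ER. Its means were 238 FPKM in LNA-802 livers and 136 FPKM in scrambled livers at day 6, and 188 FPKM in LNA-802 livers and 176 FPKM in scrambled livers at day 3. The day 6 pair thus lay on either side of the day 3 pair. The authors' deposited table puts the rise at 1.77-fold, with an approximate 95% interval, rebuilt here from the p-value, of 1.39 to 2.25 (edgeR adjusted p = 0.00300). Creld2, an ER-resident protein with disulfide isomerase activity, had the largest ratio of the list. It averaged 21.3 FPKM in LNA-802 livers and 8.37 FPKM in scrambled livers, 2.57-fold with an interval of 1.80 to 3.68, and edgeR adjusted p = 4.7e-04 in the authors' deposited table. Its day 3 means were 14.2 FPKM with LNA-802 and 13.5 FPKM with the scrambled LNA, close to each other and between the day 6 means.

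Manf encodes a small ER protein that binds BiP, and Sdf2l1 a component of the BiP complex. Manf was at 29.3 FPKM in LNA-802 livers against 14.9 FPKM in scrambled livers, and Sdf2l1 at 14.3 FPKM with LNA-802 against 7.65 FPKM with scrambled LNA. Hyou1, an ER relative of Hsp70, was at 37.7 FPKM in LNA-802 livers against 21.4 FPKM in scrambled livers. Ero1lb encodes the oxidase that recharges protein disulfide isomerases, and was at 13.5 FPKM with LNA-802 against 8.15 FPKM with scrambled LNA. In the authors' deposited table the 4 ratios are 1.99, 1.89, 1.79 and 1.68, with edgeR adjusted p of 0.00119, 0.0409, 0.0284 and 0.0199. Other abundant chaperone genes did not pass. Hsp90b1, which encodes GRP94, had 210.4 FPKM in LNA-802 livers and 181 FPKM in scrambled livers, and the lectin chaperone gene Canx had 59.3 FPKM with LNA-802 and 56.0 FPKM with scrambled LNA. By the authors' deposited table the disulfide isomerase genes Pdia6 and Pdia4 had log2 ratios of 0.45 and 0.41, and the co-chaperone genes Dnajb9 and Dnajb11 0.86 and 0.57, none of them past the threshold.

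Genes for transport between ER and Golgi lay mostly above 0 too. Of 49 listed genes for ER translocation and ER-to-Golgi transport, 47 lay above 0, with a median log2 ratio of 0.25. Here 4 rose and 24 had an unadjusted edgeR p under 0.05. Tmed9 (chr13:55694495-55699055, mm9), a p24 cargo receptor of coated vesicles, averaged 23.4 FPKM in LNA-802 livers and 13.6 FPKM in scrambled livers. Its 1.74-fold rise had an interval of 1.46 to 2.07, and the authors' deposited table gives edgeR adjusted p = 2.91e-06. Arfgap3 switches off the ARF1 GTPase on Golgi vesicles, and it was at 3.29 FPKM in LNA-802 livers against 1.56 FPKM in scrambled livers. Sec23b, a subunit of the COPII coat that leaves the ER, was at 12.6 FPKM with LNA-802 against 8.07 FPKM with scrambled LNA, and the Golgi SNARE gene Gosr2 at 14.7 FPKM with LNA-802 against 10.2 FPKM with scrambled LNA. The authors' deposited table gives the 3 genes edgeR adjusted p of 1.14e-05, 0.0105 and 0.0324. Tmed3, a relative of Tmed9, did not pass (7.71 FPKM in LNA-802 livers and 5.09 FPKM in scrambled livers, edgeR adjusted p = 0.0531 in the authors' deposited table).

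ER-associated degradation returns misfolded proteins to the cytosol for the proteasome. All 17 listed genes of this route lay above 0, with a median log2 ratio of 0.23. Of these, 1 rose: Syvn1 (chr19:6046575-6053718, mm9), which encodes HRD1, the central ubiquitin ligase. It averaged 21.8 FPKM in LNA-802 livers and 10.7 FPKM in scrambled livers. Its fold was 2.06, with an interval of 1.63 to 2.60 and edgeR adjusted p = 7.13e-06 by the authors' deposited table. Derl3, a channel component that is low in liver, had the largest log2 ratio of the list at 1.73, from means of 1.44 FPKM in LNA-802 livers and 0.432 FPKM in scrambled livers, and did not pass (edgeR adjusted p = 0.154 in the authors' deposited table). It was a member through the LNA-802 group alone, so it had to be low with scrambled LNA. Derl3 thus carries no weight in the count above 0. Herpud1, an HRD1 partner, had 50.7 FPKM in LNA-802 livers and 36.5 FPKM in scrambled livers, and did not pass either.

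Over the 3 lists, 11 of 87 genes rose and 0 fell, 44 and 0 at an unadjusted edgeR p under 0.05. The 11 are 12.6% against 0.402% of all genes called higher, and 85 of the 87 lay above 0. Derl3, which entered through the LNA-802 group alone, is among the 85 and carries no weight there. These lists were chosen with the result known, so the shares are a description. Several called rises outside the lists act in the same compartments or in the synthesis of sugars for glycans. They were picked after the calls were seen. Stx5a encodes a Golgi syntaxin, Rabac1 a Rab acceptor, Wfs1 the ER membrane protein wolframin, Atp2a2 the ER calcium pump SERCA2 and Tor1b an ATPase of the ER lumen. Gmppb makes GDP-mannose for glycans, and Gfpt1 catalyses the first step to UDP-N-acetylglucosamine. Their ratios ran from 1.44 for Atp2a2 to 1.77 for Rabac1 in the authors' deposited table. Atp2a2 was the most abundant, with 32.5 FPKM in LNA-802 livers and 22.8 FPKM in scrambled livers. Below the 1 FPKM minimum the table also calls Bhlha15, which encodes the secretory-cell factor MIST1, with 0.169 FPKM in LNA-802 livers and 0.0183 FPKM in scrambled livers.

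The ATF4 and CHOP genes gave another picture. Of 9 at 1 FPKM, 5 lay above 0, their median log2 ratio was 0.00, and 0 passed edgeR's adjusted p (0 above and 1 below 0 at an unadjusted p under 0.05). Ddit3, which encodes CHOP, had 2.28 FPKM in LNA-802 livers and 1.94 FPKM in scrambled livers, and Atf4 had 22.9 FPKM with LNA-802 and 22.5 FPKM with scrambled LNA. The lowest unadjusted p of the list belonged to Cth, an enzyme of cysteine synthesis, with 96.9 FPKM in LNA-802 livers and 136 FPKM in scrambled livers (edgeR adjusted p = 0.211 in the authors' deposited table). Cytosolic heat shock genes, which respond to unfolded protein outside the ER, had 15 of 22 above 0, a median log2 ratio of 0.05 and 0 calls by edgeR (2 above and 1 below 0 at an unadjusted p under 0.05).

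**Figure D2:**
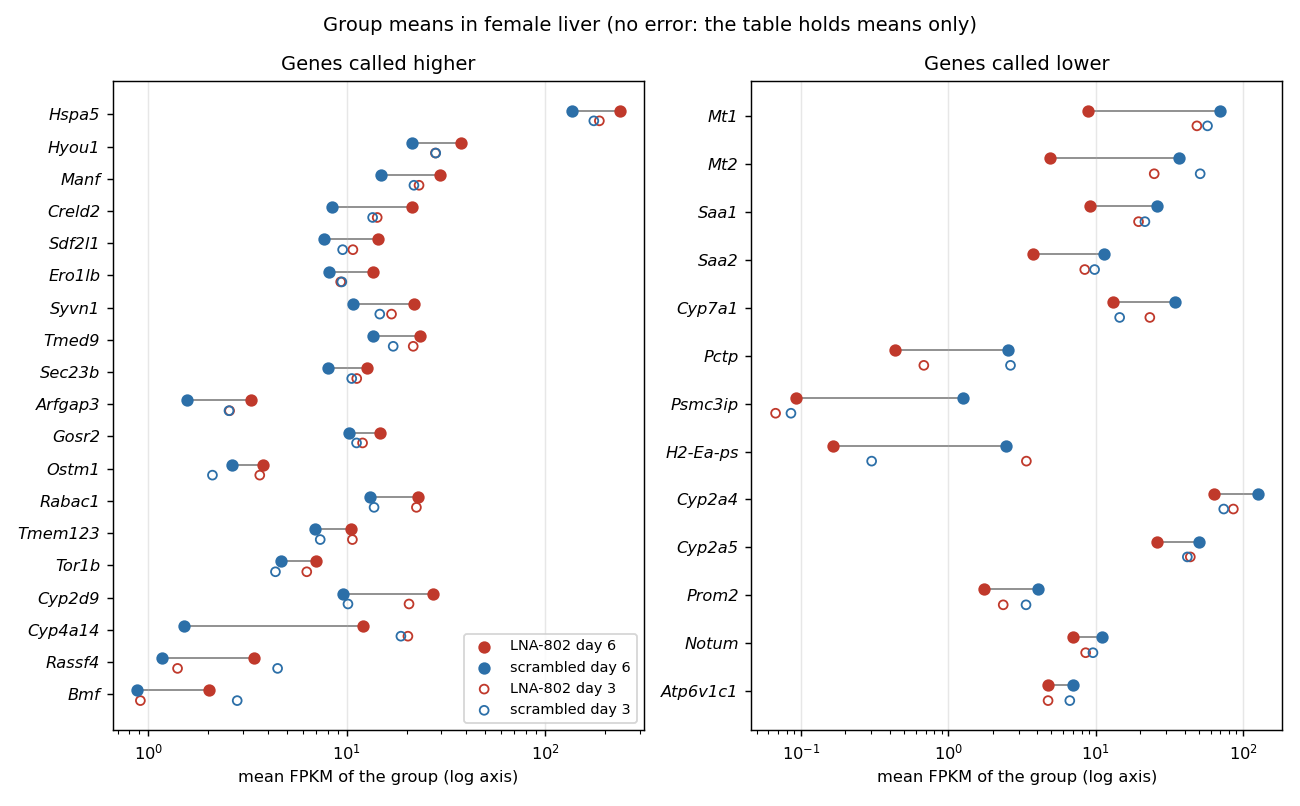
Mean FPKM (log axis) of 19 genes called higher (left) and 13 called lower (right) at day 6, with LNA-802 in red and scrambled LNA in blue. Filled circles joined by a line are day 6 and open circles day 3. For the ER genes at the top left the day 3 means lie between the day 6 means, while for Ostm1, Rabac1 and Tmem123 both days are split the same way.

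The promoters of the rising ER genes were searched for the ER stress response element (ERSE), a site bound by NF-Y and ATF6 or XBP1, spelled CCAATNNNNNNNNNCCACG and read on both strands. RefSeq windows of GRCm38.p6 covering 250 bases before to 50 bases after each start were used, of which 0.119% of 32851 hold the motif. It was present in 15 of the 7479 members with such a window (0.201%), in 4 of the 30 rising genes with a window and in 0 of 17 falling genes with one. Of the 15 genes, 13 lay above 0 at day 6, with a median log2 ratio of 0.34, and the same 15 had a median of 0.01 at day 3. Derl3, a member through the LNA-802 group alone, is among the 13 and carries no weight in that count. Hspa5, Creld2, Ero1lb, Pdia6, Hsp90b1, Canx, Syvn1 and Derl3 among the 15 belong to the ER lists above, so the motif set is not independent of those lists. Pan2 and Hnrnpa3 had log2 ratios of 0.11 and 0.04. The 2 below 0 were the lipid enzyme genes Acacb and Acnat2, at -0.17 and -0.09. The sites in the promoters of the 4 rising genes, and of Derl3 as the motif gene with the largest ratio, are shown in promoter orientation with the fixed bases in capitals.
Hspa5: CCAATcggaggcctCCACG
Creld2: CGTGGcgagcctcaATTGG
Syvn1: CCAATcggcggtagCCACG
Ero1lb: CGTGGtcccgcctcATTGG
Derl3: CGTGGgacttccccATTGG
In Hspa5 and Syvn1 the motif reads forward, and in Creld2, Ero1lb and Derl3 in reverse. The site lies 65 to 47 bases before the start in Hspa5 and 44 to 26 bases before it in Syvn1. A match is only a match of letters. Sdf2l1 rose with none in its window, and Hyou1 and Manf had no window to search. The whole Hspa5 window (chr2:34771840-34772139 on the plus strand, GRCm38.p6) is shown because the letters ccaat occur again upstream of its site, with the motif's fixed bases in capitals.
Hspa5 promoter: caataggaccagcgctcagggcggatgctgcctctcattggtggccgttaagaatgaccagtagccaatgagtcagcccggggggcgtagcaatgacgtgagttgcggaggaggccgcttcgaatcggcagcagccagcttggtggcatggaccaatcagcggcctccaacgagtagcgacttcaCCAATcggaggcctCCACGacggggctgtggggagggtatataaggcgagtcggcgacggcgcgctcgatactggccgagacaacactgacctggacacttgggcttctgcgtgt

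The ER genes were set against the other comparisons. At day 3 of LNA-802 the 21 chaperone genes had a median log2 ratio of -0.02 with 9 above 0, the 17 degradation genes 0.00 with 8 above 0, and the 49 transport genes -0.02 with 23 above 0. The chaperone means summed to 1245 FPKM in LNA-802 livers and 1224 FPKM in scrambled livers at day 3, so at day 6 the LNA-802 sum was higher and the scrambled sum lower than both. In LNA-1948 males at day 6, a different oligonucleotide against different controls, the 3 lists also lay above 0, in 21 of 21, 17 of 17 and 46 of 49 genes. Their medians there were 0.21, 0.10 and 0.10, and the chaperone sum was 1470 FPKM in LNA-1948 livers and 1218 FPKM in scrambled male livers. Hspa5 had 222 FPKM in LNA-1948 males and 169 FPKM in scrambled males, and the authors' deposited table gives it a log2 ratio of 0.33 there. The difference between LNA-802 at day 6 and LNA-802 at day 3, or LNA-1948 at day 6, was tested per gene with an approximate z test. None of the 87 ER and transport genes passed in either test. Their smallest adjusted p was 0.0881 against day 3, for Arfgap3, and 0.207 against LNA-1948, for Tmed9. The ER shift at day 6 was thus not shown to be particular to LNA-802.

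**Figure D3:**
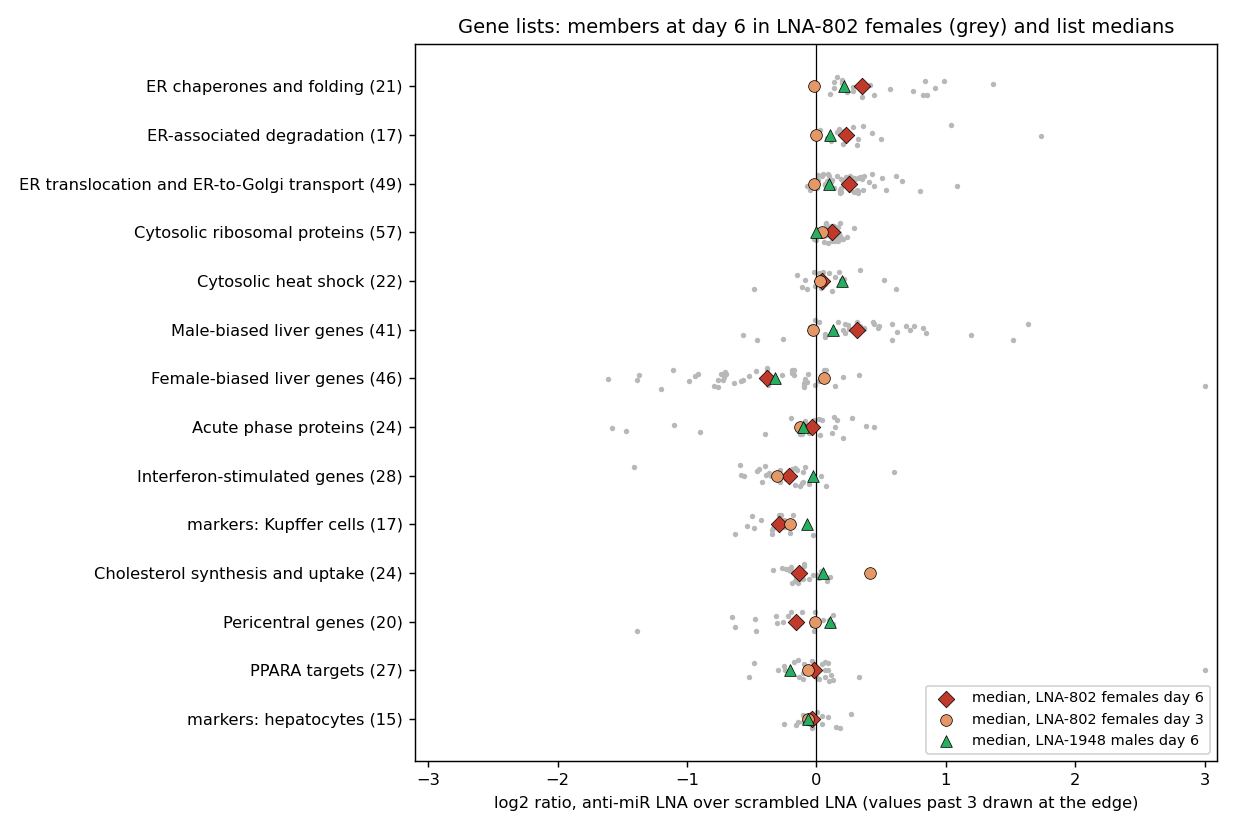
Log2 ratios over scrambled LNA for the members of 14 gene lists, with the number of members in brackets. Grey points are single genes in LNA-802 females at day 6, and symbols are list medians for LNA-802 females at day 6 (red), LNA-802 females at day 3 (orange) and LNA-1948 males at day 6 (green). The 3 ER lists lie to the right at day 6 under both oligonucleotides and near 0 at day 3.

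Metallothioneins gave the largest fall by p. These small cysteine-rich proteins hold zinc and copper, and their genes are induced through the metal-responsive factor MTF-1 and by glucocorticoids. Mt1 (chr8:96702988-96704227, mm9) averaged 8.86 FPKM in LNA-802 livers and 69.4 FPKM in scrambled livers at day 6, against 48.5 FPKM in LNA-802 livers and 57.2 FPKM in scrambled livers at day 3. Mt2 (chr8:96696517-96697467, mm9) averaged 4.86 FPKM with LNA-802 and 36.5 FPKM with scrambled LNA at day 6 and 24.9 FPKM with LNA-802 and 51.0 FPKM with scrambled LNA at day 3. For both genes the LNA-802 mean at day 6 was the lowest of the 4 female means, and the other 3 were between 24.9 and 69.4 FPKM. The authors' deposited table puts the falls at 7.73-fold for Mt1 and 7.39-fold for Mt2, with edgeR adjusted p of 1.6e-29 and 3.71e-06. Their approximate intervals were 5.56 to 10.8 and 3.92 to 13.9. Mt1 differed from its day 3 effect (adjusted p = 4.98e-05, approximate z test), while the Mt2 difference did not pass. Male livers were low in both genes without LNA-802: scrambled males had 4.33 FPKM of Mt1 at day 6 and 3.32 FPKM at day 3, and 1.66 and 1.07 FPKM of Mt2.

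The other 12 members of the metal list did not pass. The zinc importer gene Slc39a4 had 12.9 FPKM in LNA-802 livers and 9.70 FPKM in scrambled livers, and the zinc exporter gene of the secretory pathway Slc30a5 had 6.13 FPKM with LNA-802 and 4.62 FPKM with scrambled LNA. Of 27 glucocorticoid and fasting genes, 13 lay above 0, and Mt1 and Mt2 were the only 2 called. Fkbp5, a glucocorticoid receptor target, had 7.69 FPKM in LNA-802 livers and 5.10 FPKM in scrambled livers and did not pass. The promoter windows of both metallothionein genes are shown with each match to TGCNCNC, a loose form of the core of the metal response element, in capitals on either strand (RefSeq, GRCm38.p6, chr8:94178839-94179138 and chr8:94172368-94172667, both on the plus strand). Mt1 holds 3 matches, a number that 11.9% of the 7479 windows reach, and Mt2 holds 6, which 0.401% of them reach. The motif is common, with at least 1 match in 63.2% of these windows, so its presence alone marks neither gene. With a purine at the fourth base (TGCACNC or TGCGCNC, a search added after seeing the data), Mt1 holds 3 matches and Mt2 holds 4, numbers that 4.01% and 1.04% of the windows reach, and 40.1% hold at least 1.
Mt1 promoter: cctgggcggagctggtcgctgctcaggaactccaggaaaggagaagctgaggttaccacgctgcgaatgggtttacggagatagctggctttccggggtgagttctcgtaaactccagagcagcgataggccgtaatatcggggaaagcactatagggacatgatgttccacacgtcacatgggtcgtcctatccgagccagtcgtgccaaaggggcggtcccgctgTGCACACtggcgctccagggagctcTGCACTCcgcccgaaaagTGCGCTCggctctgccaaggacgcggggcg
Mt2 promoter: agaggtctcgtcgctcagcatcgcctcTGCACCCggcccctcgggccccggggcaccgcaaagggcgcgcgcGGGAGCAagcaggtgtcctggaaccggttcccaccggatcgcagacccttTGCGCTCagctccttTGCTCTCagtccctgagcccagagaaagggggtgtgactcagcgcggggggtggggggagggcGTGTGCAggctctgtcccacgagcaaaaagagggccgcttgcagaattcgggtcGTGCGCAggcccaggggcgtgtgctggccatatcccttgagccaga

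Acute phase genes were split in direction. Of 24 members, 11 lay above 0, with a median log2 ratio of -0.04. At an unadjusted edgeR p under 0.05, 1 lay above 0 and 4 below, and 2 fell at the adjusted threshold. These were Saa1 and Saa2, which encode serum amyloid A, apolipoproteins made in inflammation. Saa1 averaged 9.19 FPKM in LNA-802 livers and 25.9 FPKM in scrambled livers at day 6, and 19.5 FPKM with LNA-802 and 21.5 FPKM with scrambled LNA at day 3. Saa2 averaged 3.76 FPKM with LNA-802 and 11.4 FPKM with scrambled LNA at day 6, and 8.41 FPKM with LNA-802 and 9.81 FPKM with scrambled LNA at day 3. The LNA-802 mean at day 6 was thus below the other 3 in both. The authors' deposited table gives falls of 2.78-fold and 2.98-fold (edgeR adjusted p = 1.99e-05 and 3.59e-05). The 2 genes are close copies, and how the counting treated shared reads is not given in the sources used here. Lcn2, which encodes an iron-carrier binding protein, had 3.42 FPKM in LNA-802 livers and 7.42 FPKM in scrambled livers, and the orosomucoid gene Orm2 had 5.06 FPKM with LNA-802 and 9.57 FPKM with scrambled LNA, neither past the threshold. Abundant members did not follow: haptoglobin (Hp) had 494 FPKM in LNA-802 livers and 450.5 FPKM in scrambled livers, and fibrinogen alpha (Fga) 875 FPKM with LNA-802 and 803 FPKM with scrambled LNA.

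Markers of Kupffer cells, the resident macrophages of liver, lay low beside them. All 17 at 1 FPKM, of 18 in the table, lay below 0, with log2 ratios from -0.63 for Lyz2 to -0.03 for Slc40a1 and a median of -0.29. Of these, 0 fell at the adjusted threshold and 9 had an unadjusted edgeR p under 0.05. Over all 18 markers the means summed to 139 FPKM in LNA-802 livers and 168 FPKM in scrambled livers at day 6. At day 3 the sums were 148 FPKM with LNA-802 and 161 FPKM with scrambled LNA. None of the 17 had a mean of 0, and Slc40a1 alone gave 38.4 and 39.7 FPKM of the day 6 sums. Lysozyme (Lyz2) had 6.60 FPKM in LNA-802 livers and 10.3 FPKM in scrambled livers, and the Kupffer lectin gene Clec4f had 15.5 FPKM with LNA-802 and 18.6 FPKM with scrambled LNA. Of 28 interferon-stimulated genes, 25 lay below 0 with a median of -0.21, and 1 fell. That was Ifit3, an antiviral RNA-binding protein, with 0.775 FPKM in LNA-802 livers and 2.10 FPKM in scrambled livers, against 1.11 FPKM with LNA-802 and 1.16 FPKM with scrambled LNA at day 3 (edgeR adjusted p = 0.00417 in the authors' deposited table). Ifit3 was a member through the scrambled group alone, so it had to be low with LNA-802. It carries no weight in these counts. Both lists lay below 0 at day 3 too. The interferon-stimulated genes had a median of -0.31 there, with 24 of 28 below 0 and 11 of these at an unadjusted edgeR p under 0.05. The Kupffer markers had a median of -0.20, with 15 of 17 below 0. The part of the Kupffer markers in these levels was not tested. H2-Ea-ps, a pseudogene of MHC class II, fell at day 6, with 0.165 FPKM in LNA-802 livers and 2.45 FPKM in scrambled livers. At day 3 the order was the opposite, with 3.38 FPKM with LNA-802 and 0.302 FPKM with scrambled LNA, and the difference passed (adjusted p = 0.00324, approximate z test).

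In bile acid and lipid metabolism 3 genes were called. Cyp7a1 (chr4:6192758-6202778, mm9), whose hydroxylase sets the rate of bile acid production, averaged 13.2 FPKM in LNA-802 livers and 34.7 FPKM in scrambled livers at day 6. At day 3 the means were 23.2 FPKM with LNA-802 and 14.5 FPKM with the scrambled LNA, so the scrambled mean at day 6 was the highest of the 4 and the LNA-802 mean the lowest. The fall of 2.61-fold had an interval of 1.84 to 3.72 (edgeR adjusted p = 2.1e-04 in the authors' deposited table), and it differed from day 3 (adjusted p = 0.00966, approximate z test). Of the 28 bile acid genes, 11 lay above 0 with a median of -0.05. Cyp8b1, the sterol 12-alpha-hydroxylase, had 33.3 FPKM in LNA-802 livers and 49.9 FPKM in scrambled livers and did not pass, and neither did Nr0b2, which encodes the repressor SHP (16.2 FPKM with LNA-802 and 13.5 FPKM with scrambled LNA).

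Pctp, a carrier of phosphatidylcholine, averaged 0.438 FPKM in LNA-802 livers and 2.52 FPKM in scrambled livers at day 6, and 0.682 FPKM with LNA-802 and 2.64 FPKM with scrambled LNA at day 3. At day 6 it averaged 0.308 FPKM in LNA-1948 males and 1.32 FPKM in scrambled males, so the anti-miR mean was the lower in all 3 pairs, and the difference between effects passed in neither z test. The authors' deposited table gives a fall of 5.67-fold in LNA-802 females at day 6, with edgeR adjusted p = 5.01e-04. Cyp4a14, a fatty acid hydroxylase induced by PPARA, rose 8.10-fold with a wide interval of 2.86 to 22.9 and edgeR adjusted p = 0.0310 by the authors' deposited table. Its means were 12.1 FPKM in LNA-802 livers and 1.51 FPKM in scrambled livers at day 6, while day 3 livers had 20.3 FPKM with LNA-802 and 18.7 FPKM with scrambled LNA, so the scrambled mean at day 6 was the low one. Of the 27 PPARA targets, Cyp4a14 was the only 1 called, 13 lay above 0 and the median was -0.02. Srebf1, which encodes the lipogenic factor SREBP1, had 48.8 FPKM in LNA-802 livers and 32.6 FPKM in scrambled livers and did not pass (edgeR adjusted p = 0.109 in the authors' deposited table). Cholesterol synthesis and uptake genes had 6 of 24 above 0 at day 6, a median of -0.13 and 0 calls by edgeR, with 0 at an unadjusted p under 0.05. At day 3 the same list had 23 above 0 and a median of 0.41. No single gene of it passed the test of the difference, the smallest adjusted p being 0.428.

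Sex-biased genes were read with an independent set of mice. In scrambled livers at day 3, none of which enters the day 6 comparison, 231 of the 9457 genes were higher in males than in females (2.44%) and 330 lower (3.49%), by the authors' deposited table and its edgeR adjusted p. Of the 330 female-biased genes, 258 lay below 0 with LNA-802 at day 6, with a median log2 ratio of -0.19. Among them 11 fell and 0 rose, and 81 had an unadjusted edgeR p under 0.05 below 0 against 4 above. The 11 include Tox and Rfx4, members through the scrambled group alone, which had to be low with LNA-802. They carry no weight in this count, and neither do genes of the 258 and of the 81 that entered the same way. Of the 231 male-biased genes, 165 lay above 0, with a median of 0.12, and 3 rose and 0 fell. Genes of the 165 that entered through the LNA-802 group alone carry no weight there either. The remaining 8896 genes had a median of 0.01, with 35 rises and 14 falls. Female livers given LNA-802 thus lay toward the male level for most sex-biased genes, by small amounts. The female-biased set holds 10 Kupffer markers and the leukocyte genes Ptprc, Laptm5, Cyth4 and Itgal (the last 4 chosen after their values were seen), and all 14 lay below 0. Ptprc, Cyth4 and Itgal were members through the scrambled group alone and had to be low with LNA-802. Their direction carries no weight in this count. Without the 14 genes, 244 of 316 female-biased genes lay below 0, with a median of -0.18. In LNA-1948 males at day 6 the same sets had medians of -0.06 and 0.08.

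Among the 11 female-biased falls, Cyp2a4, a steroid 15-alpha-hydroxylase, averaged 63.6 FPKM in LNA-802 livers and 127 FPKM in scrambled livers, with 85.7 FPKM with LNA-802 and 73.7 FPKM with scrambled LNA at day 3 and 1.05 FPKM in scrambled males at day 3. Its fall was 1.97-fold at day 6, with edgeR adjusted p = 0.0218 by the authors' deposited table. Its near-identical copy Cyp2a5, a coumarin hydroxylase, had 26.1 FPKM with LNA-802 and 49.8 FPKM with scrambled LNA at day 6, so single values of the pair are uncertain. Prom2, a prominin of membrane protrusions, had 1.73 FPKM in LNA-802 livers and 4.06 FPKM in scrambled livers. The transcription factor genes Tox and Rfx4 had 0.674 FPKM with LNA-802 against 1.32 FPKM with scrambled LNA and 0.607 FPKM with LNA-802 against 1.15 FPKM with scrambled LNA. Notum, a secreted Wnt deacylase of pericentral hepatocytes, had 7.04 FPKM in LNA-802 livers and 11.02 FPKM in scrambled livers. The other 5 were Mt1, Mt2, Cyp7a1, the sulfotransferase gene Sult2a6 and Atp6v0d2, a subunit of the vacuolar proton pump. The 3 male-biased rises were Cyp2d9, Car1 and Etnppl. Cyp2d9, a steroid 16-alpha-hydroxylase, averaged 27.1 FPKM in LNA-802 livers and 9.62 FPKM in scrambled livers at day 6, and 20.6 FPKM with LNA-802 and 10.1 FPKM with scrambled LNA at day 3, against 304 FPKM in scrambled males. The carbonic anhydrase gene Car1 had 2.91 FPKM with LNA-802 and 1.27 FPKM with scrambled LNA, and the phosphoethanolamine lyase gene Etnppl 18.6 FPKM with LNA-802 and 11.7 FPKM with scrambled LNA.

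**Figure D4:**
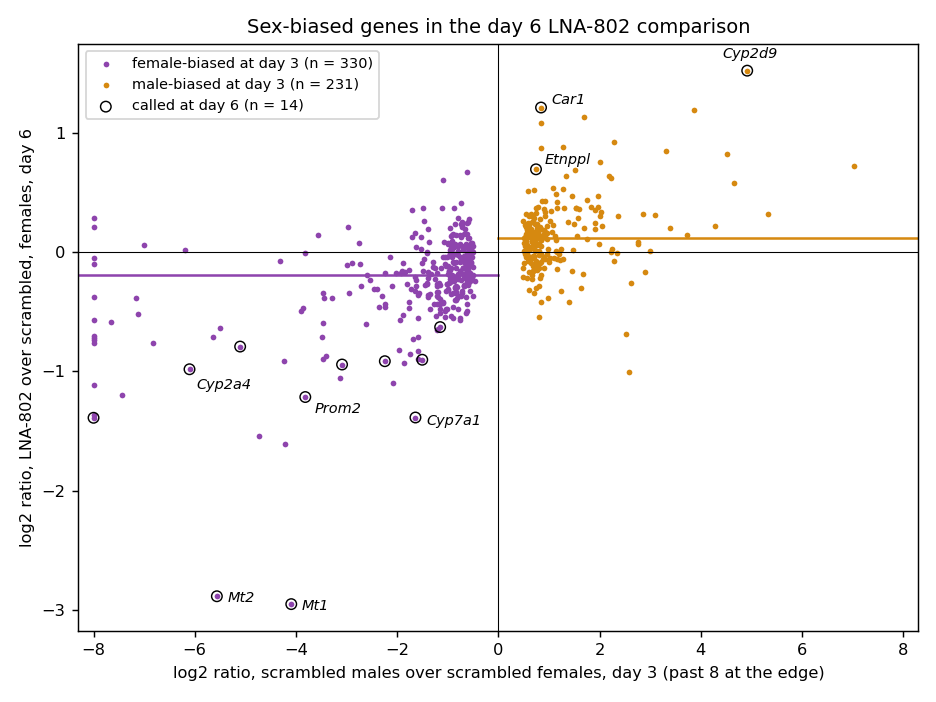
Log2 ratio of scrambled males over scrambled females at day 3 (x axis) against log2 ratio of LNA-802 over scrambled females at day 6 (y axis) for the 330 female-biased (purple) and 231 male-biased (orange) genes. Lines mark the medians of -0.19 and 0.12, and ringed points are the 14 genes called at day 6, all 11 female-biased ones below 0 and all 3 male-biased ones above.

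Growth hormone acts on liver through STAT5 and sets much of its sex bias. Of 23 listed growth hormone and STAT5 genes, 14 lay above 0, the median was 0.04 and 0 passed edgeR's adjusted p (3 above and 0 below 0 at an unadjusted p under 0.05). The repressor gene Bcl6 had 4.33 FPKM in LNA-802 livers and 1.42 FPKM in scrambled livers, and the feedback inhibitor gene Socs2 13.3 FPKM with LNA-802 and 8.92 FPKM with scrambled LNA. Pericentral genes had 5 of 20 above 0 with a median of -0.16, the 2 calls being Cyp7a1 and Notum. At an unadjusted edgeR p under 0.05, 0 of the 20 lay above 0 and 4 below. The glutamine synthetase gene Glul had 157 FPKM in LNA-802 livers and 149 FPKM in scrambled livers. Among xenobiotic genes the female-biased Cyp2a5 was the single call, and 13 of 31 lay above 0. At an unadjusted edgeR p under 0.05, 2 of the 31 lay above 0 and 7 below. Cyp2b10, the classic target of the receptor CAR, had 6.99 FPKM with LNA-802 and 11.5 FPKM with scrambled LNA without passing.

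The remaining calls were single genes of varied function. Rassf4, a Ras-association protein, averaged 3.41 FPKM in LNA-802 livers and 1.17 FPKM in scrambled livers at day 6, but 1.402 FPKM with LNA-802 and 4.48 FPKM with scrambled LNA at day 3, in the opposite order. The pro-apoptotic gene Bmf did the same, with 2.02 FPKM with LNA-802 and 0.876 FPKM with scrambled LNA at day 6 and 0.911 FPKM with LNA-802 and 2.80 FPKM with scrambled LNA at day 3. Both differed between the days (adjusted p = 0.0103 and 0.00966, approximate z test). The cell cycle kinase subunit gene Cks1b had 3.33 FPKM in LNA-802 livers and 1.38 FPKM in scrambled livers, the linker histone gene Hist1h1c 12.1 FPKM with LNA-802 and 5.63 FPKM with scrambled LNA, and the epoxide hydrolase gene Ephx1 57.2 FPKM with LNA-802 and 36.2 FPKM with scrambled LNA. For Nfxl1, a zinc finger protein, and the RNA helicase gene Dhx33 the authors' deposited table gives rises of 1.94-fold and 1.52-fold. The other rises were the cytochrome P450 gene Cyp2j9, the phospholipase C-like gene Plcl2, the phosphatase inhibitor gene Ppp1r14b, and Ccdc167, Gse1, Trabd and Tmem248, with log2 ratios from 0.50 for Tmem248 to 1.07 for Cyp2j9. Psmc3ip, a meiotic recombination factor, fell, with 0.0924 FPKM in LNA-802 livers and 1.251 FPKM in scrambled livers. Its 3 other female means were under 0.1 FPKM, so the scrambled mean at day 6 was the one that stood out. Slc16a10, a transporter of aromatic amino acids, had 4.93 FPKM with LNA-802 and 7.43 FPKM with scrambled LNA, the folate enzyme gene Mthfs 1.62 FPKM with LNA-802 and 3.37 FPKM with scrambled LNA, and the RecQ helicase gene Wrn 1.33 FPKM with LNA-802 and 1.95 FPKM with scrambled LNA. The collagen gene Col20a1, the actin-bundling gene Pls1, the zinc finger gene Zfp612 and Tmem184a also fell, with log2 ratios from -1.38 for Col20a1 to -0.75 for Tmem184a. For low genes such as H2-Ea-ps, Psmc3ip and Rassf4, as for all others, the table does not show how the single mice differed.

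The called genes were followed over the 4 female groups. In 51 of the 63 (81.0%) the 2 day 6 means were the highest and the lowest of the 4, with the day 3 means between them, against 19.2% of all 9457 genes. The genes were chosen for a large day 6 difference, so this share is a description. When each mean had to lie outside by at least 25% of the lower value, the count was 11 of 63 (17.5%). The share of all genes at this margin was not computed, so the 17.5% has no background. With no margin, only the scrambled day 6 mean lay outside the other 3 in 7 genes (11.1%, against 35.6% of all 9457). Among them were Psmc3ip, Cyp4a14, Bmf and Rassf4. Only the LNA-802 mean did so in 5 (7.94%, against 27.7%), among them Mt2, Pctp, Ostm1 and Tor1b. Of the 38 rising genes 29 had a ratio above 1 at day 3 too, with a median log2 ratio of 0.07, and of the 25 falling genes 18 had one below 1, with a median of -0.19, against 53.5% above and 46.5% below 0 among all 9457 genes at day 3. The day 3 and day 6 mice are separate. In 10 of the 63 the day 3 ratio had the same sign and an unadjusted edgeR p under 0.05, and in 3 the opposite sign (15.9% and 4.76%, against 2.59% and 1.26% of all 9457). The effects at day 6 and day 3 differed for 7 of 9375 testable genes (0.0747%). These were Mt1, H2-Ea-ps, Cyp7a1, Bmf, Rassf4, the ARF GTPase-activating gene Asap3 and the pro-apoptotic gene Bik, the last 2 not called at day 6. The effects of LNA-802 and LNA-1948 at day 6 differed for 46 of 9354 testable genes (0.492%), with oligonucleotide and sex inseparable.

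Some called genes lay higher by similar amounts at both days. Ostm1, which encodes a lysosomal membrane protein, was the single call shared with day 3, with 3.78 FPKM in LNA-802 livers and 2.63 FPKM in scrambled livers at day 6, and 3.64 FPKM with LNA-802 and 2.10 FPKM with scrambled LNA at day 3. Rabac1 had 23.0 FPKM with LNA-802 and 13.1 FPKM with scrambled LNA at day 6, and 22.4 FPKM with LNA-802 and 13.7 FPKM with scrambled LNA at day 3. Tmem123, a cell surface receptor also called porimin, had 10.5 FPKM with LNA-802 and 6.92 FPKM with scrambled LNA at day 6, and 10.7 FPKM with LNA-802 and 7.34 FPKM with scrambled LNA at day 3. Tor1b had 7.02 FPKM with LNA-802 and 4.64 FPKM with scrambled LNA at day 6, and 6.28 FPKM with LNA-802 and 4.37 FPKM with scrambled LNA at day 3. At day 6 Rabac1 averaged 15.3 FPKM in LNA-1948 males and 14.6 FPKM in scrambled males, and Tmem123 7.64 FPKM in LNA-1948 males and 7.60 FPKM in scrambled males. The 2 effects differed for Tmem123 (adjusted p = 0.0427, approximate z test) and did not pass for Rabac1 (adjusted p = 0.0578).

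Seed sites were then looked up in the longest annotated 3' UTR (GENCODE M21, GRCm38) of the 9013 members that have one, a step chosen after the data had been seen. Sites were read on the messenger strand alone. They were GTTACTG (bases 2 to 8), the same followed by A, and the shorter match to bases 2 to 7 with or without that A. Genes with GTTACTGA, the strongest class, had a median log2 ratio of 0.00 (282 genes, 49.3% above 0). Genes with GTTACTG and no A had -0.02 (676 genes), the 2 classes of shorter match -0.01 (651 genes) and 0.00 (1530 genes), and genes with no match 0.01 (5874 genes, 53.7% above 0). The medians of genes with a seed site were thus no higher than that of genes with none. With the shortest annotated 3' UTR in its place, GTTACTGA genes had a median of 0.01 (154 genes, 55.8% above 0) and genes with no match 0.01 (6968 genes, 52.5% above 0), so the order of these shares turned. At a minimum of 5 FPKM, genes with a match to bases 2 to 8 lay above 0 in 53.5% (374 genes) and genes with no match in 57.5% (2840 genes), against 46.9% and 53.7% at 1 FPKM. Their 3' UTRs were longer, with a median of 2579 bases for GTTACTGA and 732 bases for no match, and the part of length was not tested. Of the 38 rising genes, 4 held a match to bases 2 to 8, and of the 25 falling genes 3 did, which is 10.5% and 12.0% against 10.6% of all 9013. All 4 rises held GTTACTGA, 1.42% of its 282 genes against 0.426% of genes with no match. That class had 1 fall, and GTTACTG with no A had 0 rises and 2 falls. Tox, among these 2, was a member through the scrambled group alone and carries no weight in the counts of falls. At an unadjusted edgeR p under 0.05, GTTACTGA genes lay 11 above and 3 below 0, and GTTACTG genes with no A 15 and 32. Genes with no match lay 232 above and 193 below. Why the classes differ was not tested. Ostm1, Rabac1, Tmem123, Cks1b and Cyp2d9 held no match of any class.

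The sites in called genes are shown with up to 17 bases before them, the match in capitals. Tmed9, Tor1b, Tmem248 and Rassf4 rose, and Prom2, Tox and Atp6v1c1 fell.
Tmed9 site 1: gtctcagaatctcagtGTTACTGA
Tmed9 site 2: agcctacagagtcttaGTTACTGA
Tor1b site 1: tcttggactggagccgaGTTACTG
Tor1b site 2: ccacctttggactgctGTTACTGA
Tmem248: aacttcagattaagctGTTACTGA
Rassf4: gttcctagctctcaagGTTACTGA
Prom2: ttgtttgttttcagttGTTACTGA
Tox: tttatctatggctctgtGTTACTG
Atp6v1c1: tatgcataattctgtgtGTTACTG
The Tmed9 sites start at bases 258 and 625 of a 3' UTR of 707 bases, on chromosome 13, and the Tor1b sites at bases 1777 and 1863 of 1962 bases, on chromosome 2. These are 2 of 120 members with 2 or more matches to bases 2 to 8, of which 37 lay above 0 at both days and 45 below 0 at both. Tor1b had log2 ratios of 0.62 at day 6 and 0.49 at day 3 (unadjusted edgeR p = 0.00133 at day 3 by the authors' deposited table). Tmed9 had log2 ratios of 0.80 at day 6 and 0.30 at day 3. Atp6v1c1, a subunit of the vacuolar proton pump, held a site and lay lower at both days, at -0.53 and -0.53.

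**Figure D5:**
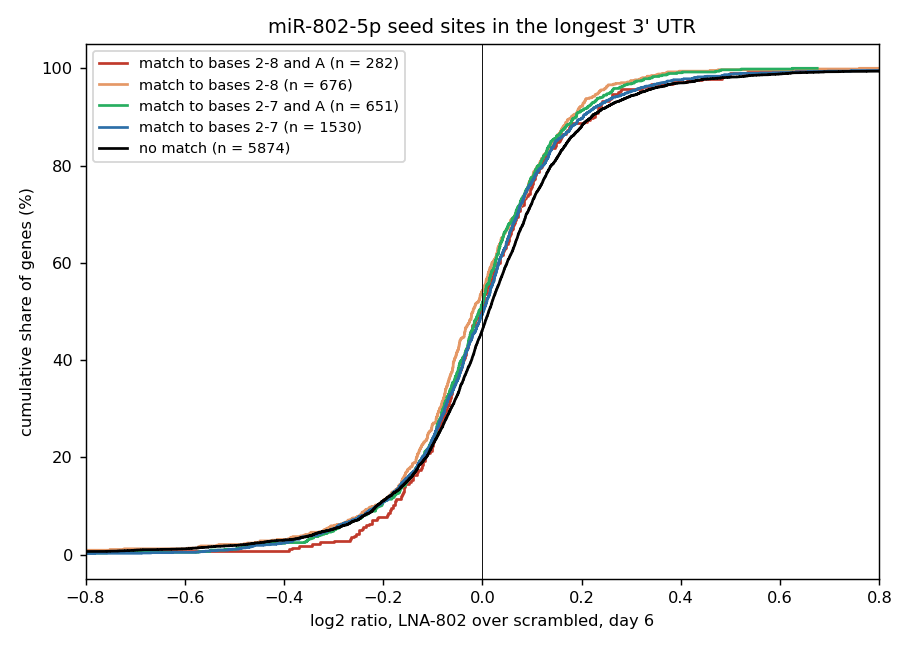
Cumulative share of genes (y axis, %) by log2 ratio of LNA-802 over scrambled LNA at day 6 (x axis), for 5 classes of miR-802-5p site in the longest 3' UTR. The curves lie within a narrow band, and the class with GTTACTGA (red, 282 genes) is not shifted to the right of the class with no match (black, 5874 genes).

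Several large groups lay close to 0 or a little above it. Cytosolic ribosomal protein genes had 56 of 57 above 0 with a median log2 ratio of 0.12 and 0 calls by edgeR (1 above 0 at an unadjusted p under 0.05). Oxidative phosphorylation genes had 37 of 47 above 0 and proteasome genes 25 of 31, both with a median of 0.05, 0 calls by edgeR and 0 at an unadjusted p under 0.05. Complement and coagulation genes had 14 of 31 above 0 with a median of 0.00, NRF2 and glutathione genes 18 of 32 with 0.02, urea cycle and periportal genes 5 of 18 with -0.04, and clock genes 11 of 16 with 0.12. The 1 call in these 4 lists was Ephx1. Markers of sinusoidal endothelium had 10 of 18 above 0 and those of stellate cells and matrix 8 of 17, with medians of 0.01 and 0.00.

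The genes nearest the limits were as follows. Besides Tmed3, the smallest adjusted p above 0.05 belonged to the microRNA gene Mir6340 (listed at 0 in LNA-802 livers, 2.08 FPKM in scrambled livers), the phosphate transporter gene Slc34a2 (0.605 FPKM with LNA-802 and 1.29 FPKM with scrambled LNA), and Tmem120a and Tmem25, with log2 ratios of -0.60 and -0.57. Just inside the 1 FPKM limit were Arl6, Hps1 and AB124611, with log2 ratios of -0.09, 0.09 and -0.32, and just outside it Alkbh4, Tacc2 and Hnrnpa1, with -0.20, -0.04 and 0.03. The authors' deposited table calls 19 further genes below the limit, of which 6 rose and 13 fell, among them the male-biased fatty acid hydroxylase gene Cyp4a12a with 0.611 FPKM in LNA-802 livers and 0.0783 FPKM in scrambled livers.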

How the data were processed

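Liver poly(A) RNA of mice was measured by strand-specific RNA sequencing, 5 LNA-802 females and 3 scrambled females at day 6. Reads were mapped with TopHat2 to mm9, counted with featureCounts and compared with edgeR, per the submitters' processing notes. Versions, and the test the authors ran in edgeR, are not given in the sources used here. The authors gave mean FPKM per group, an expression ratio, a p-value and an adjusted p-value per gene, per the file headers. A Benjamini-Hochberg adjustment over all 24197 genes gave the deposited adjusted p-value, which was checked. The authors' ratio differed from the ratio of the deposited mean FPKM by 0.02 (log2, median). No count model was run, since the table holds no counts.

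From the table, genes at 1 FPKM or more in either group were kept. Called means an adjusted p under 0.05. Standard errors were rebuilt as |log2 ratio| over the normal quantile of the p-value, intervals use 1.96 of them, and differences between independent comparisons used a two-sided z test with Benjamini-Hochberg adjustment (Python 3.11.15, numpy 2.4.6, scipy 1.17.1). This test was run on simulated normal effects drawn with the same rebuilt errors. The simulation therefore cannot show how well these errors hold for the data. Groups were taken from the labels. Whether the counting used strand, and how it treated reads shared by close copies (Cyp2a4 and Cyp2a5, Mt1 and Mt2, Saa1 and Saa2, the Sult2a and Cyp2d genes), is not given in the sources used here, so single values of these genes are uncertain. In 15 rows the symbols of the coordinate and comparison columns differ, and the comparison's own symbols were used. The members and lists (42 lists, 997 genes, 796 of them members) were chosen with earlier results of these data known. Genes were named if called, among the first 6 of a list by unadjusted p, among the 5 nearest the threshold, among the 3 on either side of the 1 FPKM limit, or among the 10 first in a difference test, and others were chosen after their values were seen. Alternatives were other FPKM minimums, thresholds and pseudocounts, and a floor on the standard errors, which the values given do not use (the closing section gives their effect).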

Additional observations from a re-analysis of the deposited data

Results flagged for a closer look

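These results had effects that differed between comparisons in the approximate z test of the difference (adjusted p under 0.05), among genes called at day 6 or differing from day 3. The log2 effect at day 6 minus that at day 3 was -2.67 for Mt1, -7.25 for H2-Ea-ps and -2.03 for Cyp7a1. It was 3.28 for Rassf4, 2.89 for Bmf, 1.99 for Bik and 1.23 for Asap3. In H2-Ea-ps, Bmf, Rassf4, Bik and Asap3 the ratio had opposite signs at the 2 days, each with an unadjusted edgeR p under 0.05 at both.

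Against LNA-1948 males at day 6, the signed difference of LNA-802 minus LNA-1948 was -3.11 for Cyp2a5, -3.08 for Mt1, -3.45 for Mt2, -2.40 for Saa1, -1.95 for Saa2, -6.75 for Psmc3ip, -2.06 for Col20a1, -1.51 for Pls1, -0.998 for Tmem184a and -0.74 for Slc16a10. It was 6.47 for Cyp4a14, 3.07 for Rassf4, 1.39 for Cyp2d9, 1.33 for Cyp2j9, 1.28 for Hist1h1c and 0.67 for Tmem123. Cyp2a5 had 27.6 FPKM in LNA-1948 males and 5.83 FPKM in scrambled males, a change in the opposite direction to that in LNA-802 females, and it was called in both. The same held for Rassf4, with 2.37 FPKM in LNA-1948 males and 6.42 FPKM in scrambled males. Sex and oligonucleotide cannot be told apart in these differences.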

How the results depend on the processing

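Of 182 values recomputed for the comparisons and lists, 169 stayed within their limits and 13 moved. All 189 values of the 63 called genes, under 2 pseudocounts and under an adjustment over the 9457 genes alone, kept their direction and call. The pseudocount settings kept the deposited adjusted p, and the adjustment over fewer genes kept the ratios and p-values. These 189 values therefore do not test the calls. The 63 calls (38 higher, 25 lower) became 82 with no minimum, of which 38 lower, 36 at 5 FPKM (24 higher, 12 lower) and 33 at an adjusted p under 0.01 (17 higher, 16 lower). The difference from day 3 held for 2 genes at 5 FPKM. Of female-biased genes 13.04% lay above 0 at a bias of 2-fold or more, against 21.8% of all. Genes with a match to bases 2 to 8 were above 0 in 46.9%, and in 53.5% at 5 FPKM (57.5% with no match there), a setting chosen after seeing the data, and the cause was not tested. With a margin of 25% of the lower value, day 6 means outside the other 3 numbered 29 for LNA-802 (56 with no margin) and 25 for scrambled (58), with both in 11 genes (51). These are counts among the 63 called genes, and the shares of all genes at that margin were not computed. Cholangiocyte markers were above 0 in 100% at 5 FPKM, which leaves 1 gene. No paired analysis was possible because the table holds group means alone, and leaving out single mice was not possible for the same reason. Precision is limited by unknown depth and by 3 control mice.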

Other observations

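Clock genes and linker and replication-dependent histone genes lay mostly above 0. Of 16 clock genes, 0 were called by edgeR, with 3 above and 0 below 0 at an unadjusted p under 0.05. Cry1, a repressor of the core clock, had 2.69 FPKM in LNA-802 livers and 1.77 FPKM in scrambled livers, and the clock output factor gene Dbp 3.93 FPKM in LNA-802 livers and 1.78 FPKM in scrambled livers. All 8 histone genes at 1 FPKM lay above 0, with a median log2 ratio of 0.18, and Hist1h1c was the 1 called. Among membrane lipid genes 13 of 17 lay below 0, and Bhmt, which remethylates homocysteine with betaine, had 549 FPKM in LNA-802 livers and 823 FPKM in scrambled livers without passing (edgeR adjusted p = 0.178 by the authors' deposited table). Gadd45g, a growth arrest gene, had 9.03 FPKM in LNA-802 livers and 3.76 FPKM in scrambled livers and did not pass.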
